A study of Homo sapiens with 12 samples.

Results

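The effect of nab-paclitaxel in irradiated cells was measured as the difference between the combination of drug and radiation and radiation alone in TFK1, an established human cholangiocarcinoma (bile duct cancer) cell line labelled as wild type. The comparison rests on 6 of the 12 RNA-seq libraries of the series. The 3 combination libraries came from cells given nab-paclitaxel at 1.62 ng/ml and 6 Gy, and the 3 radiation libraries came from cells given 6 Gy without drug. All 6 therefore come from irradiated cells, and RNA of each group was taken 24 h after treatment. The remaining 6 libraries, nab-paclitaxel alone at 1.62 ng/ml and untreated control with 3 each, gave the drug's effect without radiation. Values are FPKM, fragments scaled by gene length and library. All genes whose FPKM averaged 1 or more over the 12 libraries were taken, which were 13609 of 58735. The replicates are labelled biological, but separate cultures are not stated, so p-values measure the spread between these libraries, which may be technical. A single line is one model of the disease, and the labels name no other cells in the culture.

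Nab-paclitaxel is paclitaxel bound to albumin. Paclitaxel binds the beta-tubulin subunit of microtubules and stabilises them, so that chromosomes are not pulled apart normally and cells linger in mitosis or leave it with missegregated chromosomes. Ionising radiation breaks DNA and, where p53 acts, raises CDKN1A (p21), which holds cells before S phase and mitosis. Cells are most sensitive to radiation around mitosis, which is why microtubule drugs have long been combined with it. The study's title ties the combination to DNA damage in the cancer cells and to the signals they send to macrophages.

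In irradiated cells with the drug, most genes of its own target, the alpha- and beta-tubulins, were higher, together with many interferon-stimulated genes and proteasome subunits, some p53 targets such as SFN and CDKN1A, some mitotic genes such as CDC20, and some genes of glycolysis, antioxidant defence and sterol synthesis. Some chaperones of the endoplasmic reticulum and several amino acid response genes were lower. Of the 13609 genes, 654 (4.81%) were higher in the combination and 401 (2.95%) were lower, at an adjusted p under 0.05 by limma's moderated test. In each of these 1055 genes the 3 combination libraries all lay on one side of the 3 radiation libraries. Passing the threshold makes this likely, and the share over all tested genes is not given. The lack of overlap is therefore no separate support, here or for single genes below. Most changes were small. The median change was 0.45 among the genes that were higher and -0.56 among those that were lower, and 6 genes rose and 36 fell by at least 1. Here and below a log2 fold change is combination minus radiation on the log2(FPKM + 1) scale with its SE after ±, which understates the change of low genes, and the words rose and fell are kept for genes past this threshold.

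**Figure D1:**
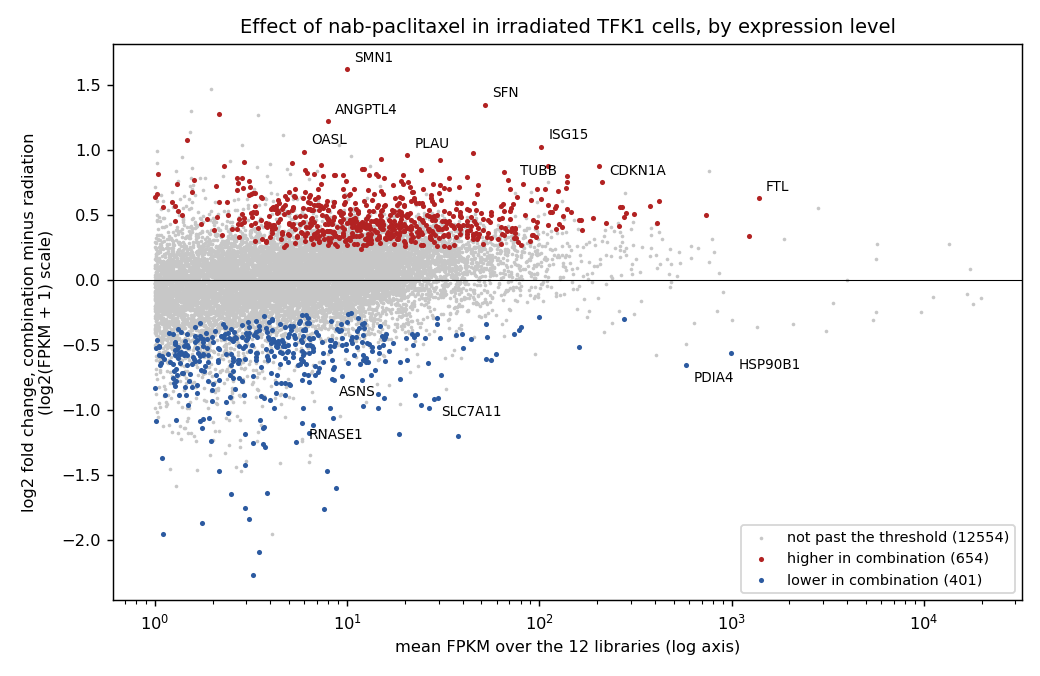
Log2 fold change of combination minus radiation (vertical axis, log2(FPKM + 1) scale) against mean FPKM over the 12 libraries (horizontal log axis), 1 point per gene; red points were higher in the combination (654), blue points lower (401) and grey points did not pass. SMN1, SFN and ANGPTL4 lie among the largest rises, PDIA4 and HSP90B1 among the abundant genes that fell, and most of the largest falls are genes below 10 FPKM.

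The libraries held 16057485 to 17130596 fragments in the combination and 16219617 to 16809052 with radiation alone. Combination 2 stood apart from combination 1 and 3. In a principal component analysis of the 6 libraries it lay at 23.4 on the second component (21.7% of variance), against -12.4 and -8.23 for combination 1 and 3, while the first component (46.1%) separated the groups. Leaving it out gave 438 higher and 265 lower genes. The number of calls fell most without combination 3 (135 higher and 83 lower) and without radiation 1 (156 and 92), and 191 of the 1055 calls (122 higher and 69 lower) were made in all 6 fits that leave out 1 of these libraries. The share of calls that were higher was 62.0%, but 50.9% with size factors over the tested genes, 52.1% after quantile normalization and 77.0% where genes needed a mean of 5 FPKM. Genes with any fragment numbered 26657 to 27379 in the combination and 28168 to 28418 with radiation alone. Mitochondrial mRNAs took 9.81 to 12.9% of fragments in the combination and 12.4 to 13.6% with radiation alone. KRT8, KRT18, KRT19, EPCAM, CDH1 and SOX9, 6 of 13 biliary epithelial markers, reached a mean of 1 FPKM, and their list summed to 1346 to 1703 FPKM in the combination and 1106 to 1182 FPKM with radiation alone. Of 19 macrophage markers 1 (ITGAX) reached it, of 15 lymphocyte and endothelial markers 0, and the macrophage markers summed to 3.80 to 4.17 FPKM in the combination and 4.04 to 5.40 FPKM with radiation alone, with C1QA, C1QB, C1QC and VSIG4 at 0 in all 12 libraries.

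Most tested alpha- and beta-tubulins rose. Of 14 alpha- and beta-tubulin genes 10 were tested, of which 7 rose and 0 fell (median 0.63, against 0.03 over all genes tested). The beta-tubulin gene TUBB (ENSG00000196230, chr6:30720201-30725426, genome build hg38, as for all gene coordinates here) stood at 139, 147 and 152 FPKM in the combination libraries, against 87.5, 84.2 and 86.3 FPKM in the radiation libraries (0.76 ± 0.07, adjusted p = 0.000405). The alpha-tubulin gene TUBA1C (ENSG00000167553, chr12:49188736-49274603) had 36.4, 35.7 and 39.0 FPKM in the combination libraries, against 19.9, 18.6 and 18.7 FPKM in the radiation libraries (0.92 ± 0.09, adjusted p = 0.000405). In both genes every combination library was above every radiation library by far more than the spread within a group. TUBB4B, another beta-tubulin, had 174, 144 and 172 FPKM in the combination libraries, against 91.5, 96.5 and 90.8 FPKM in the radiation libraries (0.80 ± 0.11, adjusted p = 0.00279), combination 2 being the lowest of its group and still well above the radiation libraries. TUBA1B had 43.8, 39.2 and 43.4 FPKM in the combination libraries, against 23.6, 24.2 and 23.6 FPKM in the radiation libraries (0.80 ± 0.11, adjusted p = 0.00309). The other members that rose were TUBB2A (0.81 ± 0.17, adjusted p = 0.0191), TUBA4A (0.48 ± 0.11, adjusted p = 0.0224) and TUBA1A (0.50 ± 0.11, adjusted p = 0.024). The levels of TUBB6 were 25.3, 19.2 and 24.8 FPKM in the combination libraries, against 18.1, 17.8 and 17.5 FPKM in the radiation libraries, which did not overlap but missed the threshold (0.35 ± 0.12, adjusted p = 0.0918). TUBB3, the neuronal beta-tubulin often discussed in taxane resistance, stood at 1.56, 1.53 and 1.58 FPKM in the combination libraries, against 1.54, 1.74 and 1.52 FPKM in the radiation libraries, and the groups overlapped (-0.02 ± 0.12, adjusted p = 0.929). TUBA1A, TUBA1B and TUBA1C are near-identical in their coding sequence, the annotated intervals of TUBA1A and TUBA1C overlap, and TUBB2A has a close copy, so how fragments were split among them is uncertain. The number that rose was 4 when any one of the 6 libraries other than combination 2 was left out, 6 without combination 2, and 4 of 14 with no filter on low genes.

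Mammalian cells adjust their tubulin mRNA to the pool of free tubulin. When free alpha-beta dimers are plentiful, translating tubulin mRNAs are recognised through the start of the growing chain and degraded, and when dimers are drawn into microtubules the mRNAs last longer. The first 30 coding bases of the 4 tubulin genes whose calls were made in all 6 leave-out fits are shown because that stretch encodes the recognised start. They are from GENCODE release 29 transcripts (GRCh38), 5′ to 3′, and capitals mark the first 12 bases.
TUBB (chromosome 6, plus strand, first base at 30720507): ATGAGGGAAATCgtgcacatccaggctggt
TUBB4B (chromosome 9, plus strand, first base at 137241361): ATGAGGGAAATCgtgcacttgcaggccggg
TUBA1C (chromosome 12, plus strand, first base at 49265182): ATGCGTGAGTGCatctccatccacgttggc
TUBA1B (chromosome 12, minus strand, first base at 49131300): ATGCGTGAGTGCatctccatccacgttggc
The alpha-tubulin pair share these 30 bases, and the beta-tubulin pair share the 12 in capitals. The mRNA's stability was not measured here.

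Genes that fold tubulin or bind microtubules did not move as one group. Of 26 tested 4 rose and 2 fell (median 0.07). STMN3, a stathmin that binds free tubulin dimers, rose (0.54 ± 0.09, adjusted p = 0.00586), and so did TPX2 (0.46 ± 0.07, adjusted p = 0.00586), which nucleates spindle microtubules, and TUBG1 and KATNA1. MAP2 (-0.48 ± 0.09, adjusted p = 0.0104) and MAP1B, which bind along microtubules and are best known from neurons, fell. The number that rose was 2 in each of the 6 leave-out fits. SPARC, a secreted protein that binds albumin and has been studied as a marker of nab-paclitaxel uptake, had 145, 140.2 and 153 FPKM in the combination libraries, against 101, 99.9 and 102 FPKM in the radiation libraries (0.53 ± 0.07, adjusted p = 0.00309). It was the single gene of 9 tested genes of paclitaxel transport, metabolism and albumin uptake that rose, and 0 of these fell. SPARC is also on the fibroblast marker list, which summed to 153 to 165 FPKM in the combination and 117 to 118 FPKM with radiation alone, most of it SPARC itself. Of the 5 tested genes of that list SPARC and ACTA2 rose, COL1A1 and FN1 fell and TAGLN did not pass (median -0.28). Its part in this was not tested.

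Some mitotic genes were higher in the combination than with radiation alone. The one with the smallest p was CDC20 (ENSG00000117399, chr1:43358955-43363203), which activates the anaphase-promoting complex, with 23.8, 22.6 and 25.4 FPKM in the combination libraries, against 12.3, 13.5 and 12.7 FPKM in the radiation libraries (0.85 ± 0.08, adjusted p = 0.000405). The groups were well apart, and CDC20 passed in all 25 other settings. CCNB2, a mitotic cyclin, had 6.68, 7.01 and 6.64 FPKM in the combination libraries, against 3.56, 3.71 and 3.69 FPKM in the radiation libraries (0.74 ± 0.10, adjusted p = 0.00275). UBE2C, the ubiquitin-conjugating enzyme of the anaphase-promoting complex, had 18.1, 17.5 and 17.9 FPKM in the combination libraries, against 10.6, 10.8 and 9.93 FPKM in the radiation libraries (0.72 ± 0.11, adjusted p = 0.00488). The spindle checkpoint kinase BUB1 rose as well (0.64 ± 0.10, adjusted p = 0.00582). Of 22 mitotic cyclins and kinases 5 rose (median 0.27), of 34 spindle, kinetochore and cytokinesis genes 7 rose (median 0.21) and of 19 genes of the anaphase-promoting complex 3 rose (median 0.18), and 0 members of these lists fell. Others that rose were CCNB1 (0.74 ± 0.16, adjusted p = 0.0197), CCNA2, CDC25B, PTTG1 (0.82 ± 0.17, adjusted p = 0.0159), the kinesins KIF20A (0.59 ± 0.11, adjusted p = 0.00925), KIF2C, KIF4A and KIF22, and BIRC5, CDCA8 and RACGAP1. Without combination 3 the 3 counts were 2, 0 and 2, without radiation 1 they were 2, 1 and 2, without radiation 2 they were 2, 2 and 2, without radiation 3 they were 3, 2 and 2, without combination 1 they were 3, 2 and 2, and without combination 2 they were 3, 4 and 3. In bulk RNA a larger share of cells in mitosis and more of these mRNAs per cell cannot be told apart.

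Many mitotic genes carry a cell cycle homology region near their start, the letters TTTGAA, through which the repressive DREAM complex acts. The letters were searched on both strands from 250 bases before to 50 bases after the start of each gene in RefSeq (GRCh38.p14). They occur in 15.2% of all 35116 promoters and in 38 of the 64 tested members of these 3 lists that have a promoter there, 4 of the 12 that rose among them. The stretches of CDC20 and CCNB2 are shown 5′ to 3′ in the direction of the gene, the letters in capitals; the first match in CDC20 is on the opposite strand, and none overlaps another motif searched here.
CDC20 (chr1:43358763-43358961, plus strand): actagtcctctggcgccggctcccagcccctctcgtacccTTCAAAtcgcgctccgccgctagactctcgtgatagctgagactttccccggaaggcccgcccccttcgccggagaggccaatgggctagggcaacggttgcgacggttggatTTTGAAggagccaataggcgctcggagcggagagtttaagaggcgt
CCNB2 (chr15:59105077-59105162, plus strand): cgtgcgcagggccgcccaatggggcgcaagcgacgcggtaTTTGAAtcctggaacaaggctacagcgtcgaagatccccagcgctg
A match describes the sequence and is neither a bound site nor a cause.

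Some p53 targets were higher in the combination than with radiation alone. Of 40 tested 8 rose and 0 fell (median 0.20), and the log2 fold change was above 0 in 32. SFN (ENSG00000175793, chr1:26863138-26864457), which encodes 14-3-3 sigma and keeps mitotic kinases out of the nucleus, had 106, 74.9 and 92.3 FPKM in the combination libraries, against 35.5, 36.3 and 32.4 FPKM in the radiation libraries (1.35 ± 0.16, adjusted p = 0.00119). CDKN1A (ENSG00000124762, chr6:36676460-36687339) had 341, 322 and 350.0 FPKM in the combination libraries, against 196, 205 and 198 FPKM in the radiation libraries (0.75 ± 0.08, adjusted p = 0.000647). The combination libraries were above the radiation libraries in both, with combination 2 the lowest of its group each time. FDXR, a mitochondrial reductase, had 46.4, 39.0 and 45.8 FPKM in the combination libraries, against 24.8, 26.7 and 25.6 FPKM in the radiation libraries (0.74 ± 0.10, adjusted p = 0.00275). PLK3, a stress-activated polo-like kinase, had 32.8, 31.2 and 31.7 FPKM in the combination libraries, against 20.2, 21.2 and 20.3 FPKM in the radiation libraries (0.61 ± 0.08, adjusted p = 0.00253). BTG2, an antiproliferative gene, CMBL, GADD45A and PLK2 also rose. MDM2, which encodes the ubiquitin ligase that limits p53, had 12.01, 15.4 and 12.04 FPKM in the combination libraries, against 14.3, 13.5 and 14.2 FPKM in the radiation libraries, and the groups overlapped through combination 2 alone (-0.09 ± 0.12, adjusted p = 0.674). GDF15, a secreted stress cytokine, had 905, 696 and 839 FPKM in the combination libraries, against 992, 1041 and 966 FPKM in the radiation libraries, lower in all 3 combination libraries but not past the threshold (-0.31 ± 0.12, adjusted p = 0.131). The number that rose was 6 to 8 over the 6 leave-out fits, which need not be the same genes, and of the 8 PLK2 passed in 0 and GADD45A in 1 of these fits. SFN, CDKN1A, PLK3 and FDXR passed in all 25 other settings. MDM2 and GDF15 each passed as lower in 1 of these settings. Under other scalings 6 to 8 members of the list rose and 0 to 2 fell.

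**Figure D2:**
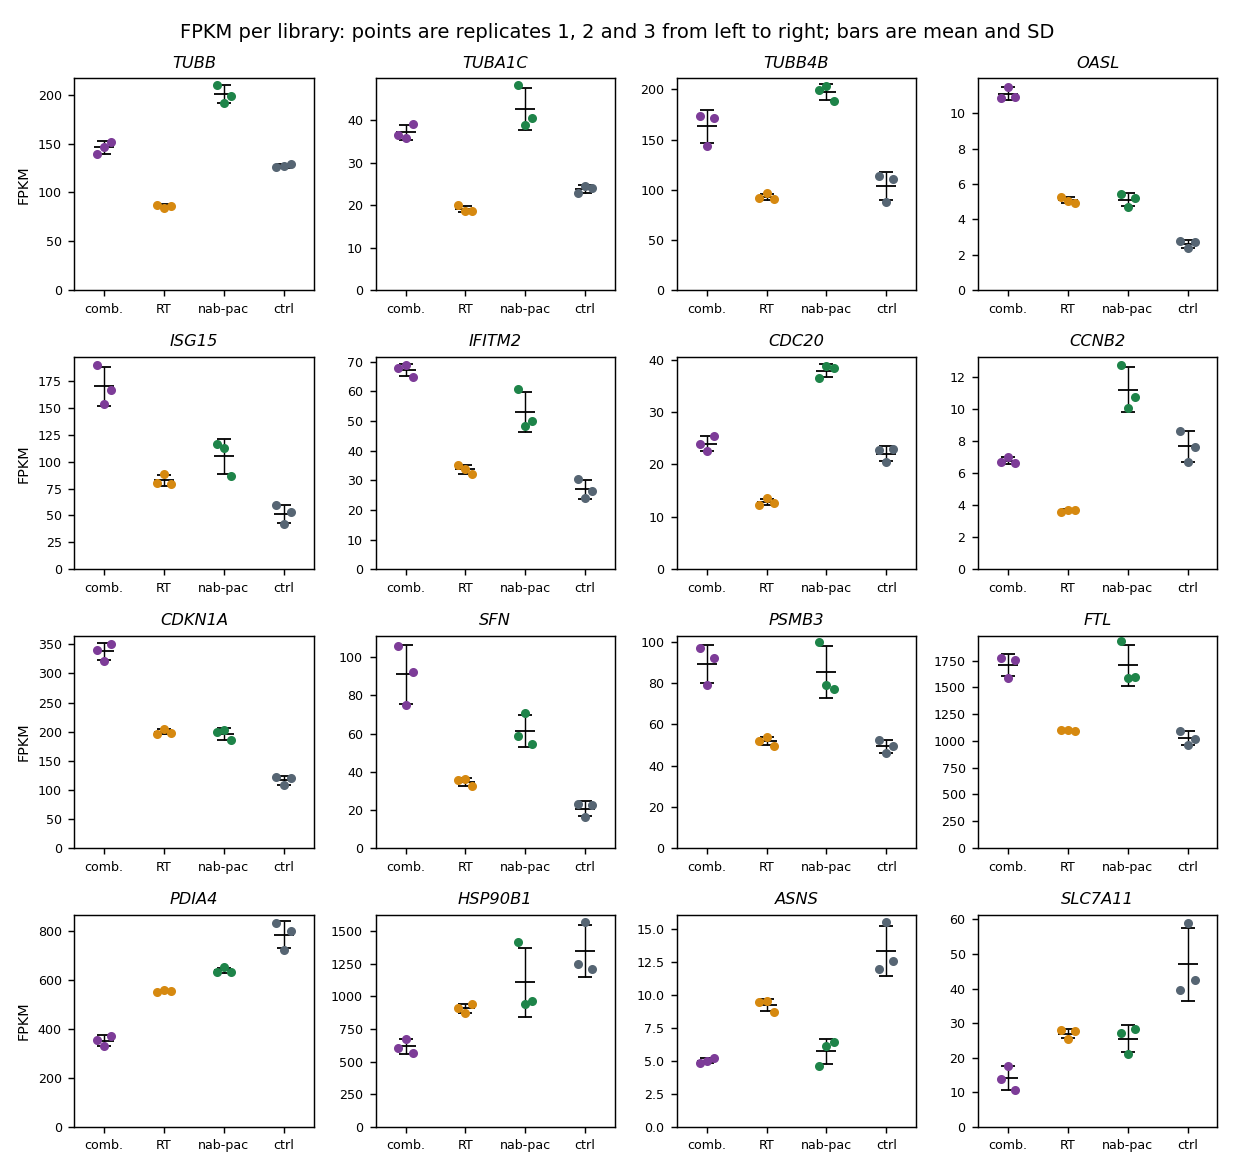
FPKM per library for 16 genes (1 panel each, vertical axes from 0), with combination, radiation, nab-paclitaxel and control from left to right; points are the 3 libraries of a group in the order of replicates 1 to 3 and bars give mean and SD. In each panel the 3 combination points lie on one side of the 3 radiation points, above them for tubulins, interferon-stimulated, mitotic, p53, proteasome and ferritin genes and below them for PDIA4, HSP90B1, ASNS and SLC7A11.

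About as many interferon-stimulated genes rose as did not pass. Interferons and cytosolic nucleic acids switch these genes on through STAT and IRF factors, and DNA damage and missegregated chromosomes are known to activate them in some cancer cells. Of 46 listed genes 29 were tested, of which 15 rose and 0 fell (median 0.45). OASL (ENSG00000135114, chr12:121019111-121039242), an oligoadenylate synthetase-like protein of the RNA-sensing pathway, had 10.9, 11.5 and 10.9 FPKM in the combination libraries, against 5.28, 5.06 and 4.93 FPKM in the radiation libraries (0.99 ± 0.08, adjusted p = 0.000237). It had the smallest p of the list and passed in all 25 other settings. ISG15 (ENSG00000187608, chr1:1001138-1014540), a ubiquitin-like modifier, had 190.0, 154 and 167 FPKM in the combination libraries, against 79.9, 88.9 and 79.4 FPKM in the radiation libraries (1.03 ± 0.15, adjusted p = 0.00335). IFITM2 (ENSG00000185201, chr11:307631-315272), a membrane protein that restricts virus entry, had 67.9, 68.9 and 65.0 FPKM in the combination libraries, against 35.1, 33.8 and 32.2 FPKM in the radiation libraries (0.98 ± 0.10, adjusted p = 0.000781). The combination libraries were clear of the radiation libraries in all 3 genes. IFIT2, which binds viral RNA, had 4.52, 4.83 and 4.32 FPKM in the combination libraries, against 2.30, 2.10 and 2.28 FPKM in the radiation libraries (0.78 ± 0.09, adjusted p = 0.00153). PARP9 had 4.30, 4.70 and 4.33 FPKM in the combination libraries, against 2.64, 2.23 and 2.46 FPKM in the radiation libraries (0.66 ± 0.09, adjusted p = 0.00275). IFIT1 (0.63 ± 0.10, adjusted p = 0.00586), IFIT3 (0.75 ± 0.14, adjusted p = 0.0103), HERC5, the ligase for ISG15 (0.81 ± 0.12, adjusted p = 0.00466), IFITM1 (0.81 ± 0.13, adjusted p = 0.00586), IFITM3, IFI35, UBE2L6 and BST2 rose too, as did the RNA sensor IFIH1 (0.57 ± 0.13, adjusted p = 0.0242) and the factor IRF1 (0.42 ± 0.10, adjusted p = 0.0319). The factor IRF7 did not pass (0.32 ± 0.13, adjusted p = 0.151). IFITM1, IFITM2 and IFITM3 are similar in sequence and the annotated interval of IFITM2 holds the start of IFITM1, so their values are uncertain one by one. Without combination 3 the number that rose was 8, and in the other 5 leave-out fits it was 10 to 12.

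The interferon-stimulated response element binds complexes of STAT and IRF proteins. Its core, GAAANNGAAA, was searched on both strands of the same promoters. It occurs in 3.57% of all promoters and in 17 of the 22 tested list members with a promoter there, among them 9 of the 12 that rose and 8 that did not pass. The stretches of ISG15, IFIT1 and IFITM1 are shown as examples of the 9, chosen after their values were seen. They rose in all 6 leave-out fits, as did HERC5 and PARP9, which hold the core too. Capitals mark the core; in IFIT1 both copies are on the opposite strand, and in ISG15 the 2 copies overlap each other.
ISG15 (chr1:1013344-1013439, plus strand): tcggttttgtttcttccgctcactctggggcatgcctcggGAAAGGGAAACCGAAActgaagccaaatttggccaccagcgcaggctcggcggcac
IFIT1 (chr10:89392467-89392569, plus strand): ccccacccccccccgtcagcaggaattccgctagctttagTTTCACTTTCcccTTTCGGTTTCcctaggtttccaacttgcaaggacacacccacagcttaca
IFITM1 (chr11:313960-314083, plus strand): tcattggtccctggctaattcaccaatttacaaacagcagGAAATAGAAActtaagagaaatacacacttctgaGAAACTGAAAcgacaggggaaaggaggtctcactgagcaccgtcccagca
The first copy starts 113 bases before the RefSeq start of ISG15, 116 before that of IFIT1 and 40 before that of IFITM1.

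Many proteasome subunits and some genes of antigen presentation rose. The proteasome degrades ubiquitin-tagged proteins and supplies peptides for MHC class I. Of 31 tested proteasome genes 17 rose and 0 fell (median 0.36), and the log2 fold change was above 0 in all 31. PSMB3, a core subunit, had 97.0, 78.9 and 92.1 FPKM in the combination libraries, against 52.0, 53.8 and 49.7 FPKM in the radiation libraries (0.77 ± 0.11, adjusted p = 0.00407). PSMB6, a catalytic core subunit, had 35.3, 36.9 and 38.4 FPKM in the combination libraries, against 22.3, 23.1 and 22.8 FPKM in the radiation libraries (0.67 ± 0.11, adjusted p = 0.00603). PSMD2, a subunit of the regulatory cap, had 63.2, 56.8 and 61.4 FPKM in the combination libraries, against 43.5, 43.5 and 43.1 FPKM in the radiation libraries (0.47 ± 0.08, adjusted p = 0.00634). In these 3 genes the groups did not overlap, and their calls were made in all 6 leave-out fits, though that on PSMD2 was lost after TPM scaling (adjusted p = 0.0556). The other 14 that rose, among them PSME3, PSMD7, PSMB1 and PSMC1, changed by at most 0.58. Of 24 antigen presentation genes 8 rose and PDIA3 fell (median 0.16), and under 3 other scalings 6 to 7 rose and 3 fell. TAPBP, tapasin of the peptide-loading complex, had 21.0, 18.7 and 23.0 FPKM in the combination libraries, against 12.3, 10.9 and 11.7 FPKM in the radiation libraries (0.79 ± 0.12, adjusted p = 0.00543). PSME2 (0.58 ± 0.10, adjusted p = 0.00634) and PSME1 (0.73 ± 0.14, adjusted p = 0.011), the interferon-inducible proteasome activator, the peptide transporter TAP1, the immunoproteasome subunit PSMB9, HLA-E, the stress ligand ULBP2 and B2M, the light chain of MHC class I, rose. B2M stood at 90.2, 94.6 and 90.2 FPKM in the combination libraries, against 61.0, 59.1 and 61.5 FPKM in the radiation libraries (0.59 ± 0.16, adjusted p = 0.043). The number of proteasome genes that rose was 6 and 9 without combination 1 and 2, 3 without combination 3 or any one radiation library, and 8 after quantile normalization, where the median was 0.22. For antigen presentation it was 3 and 2 without combination 1 and 3, 2 without radiation 1, 4 without radiation 2 or 3, and 7 without combination 2, and 0 fell in these fits.

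Some chaperones of the endoplasmic reticulum fell. The unfolded protein response raises these genes through ATF6, XBP1 and ATF4 when proteins misfold in that compartment. Of 32 tested genes 0 rose, 9 fell and 23 did not pass (median -0.26). PDIA4 (ENSG00000155660, chr7:149003062-149028641), a disulphide isomerase, had 353, 330.1 and 372 FPKM in the combination libraries, against 548, 558 and 555 FPKM in the radiation libraries (-0.65 ± 0.08, adjusted p = 0.00176). DNAJB11, a cochaperone, had 18.4, 16.4 and 17.5 FPKM in the combination libraries, against 23.5, 24.1 and 24.6 FPKM in the radiation libraries (-0.44 ± 0.07, adjusted p = 0.00486). Both fell in all 25 other settings, with no overlap between groups. HSP90B1 (ENSG00000166598, chr12:103930107-103953645), the chaperone GRP94, had 608, 677 and 568 FPKM in the combination libraries, against 914, 874 and 944 FPKM in the radiation libraries (-0.56 ± 0.16, adjusted p = 0.0499), which is at the edge of the threshold, and it did not pass in any of the 6 leave-out fits. PDIA6 had 78.3, 77.1 and 77.1 FPKM in the combination libraries, against 94.5, 93.4 and 95.1 FPKM in the radiation libraries (-0.28 ± 0.07, adjusted p = 0.0302). CRELD2 had 16.6, 12.04 and 13.6 FPKM in the combination libraries, against 18.7, 20.8 and 18.6 FPKM in the radiation libraries (-0.45 ± 0.11, adjusted p = 0.0373). EDEM1, which helps discard misfolded glycoproteins, DNAJC3, HERPUD1 and PDIA3 also fell. HSPA5, the master chaperone BiP, had 926, 974 and 935 FPKM in the combination libraries, against 1222, 1191 and 1231 FPKM in the radiation libraries, lower in all 3 combination libraries and just outside the threshold (-0.36 ± 0.10, adjusted p = 0.0577). The number that fell was 3 and 5 without combination 1 and 2, 2 without combination 3, 2, 3 and 2 without radiation 1, 2 and 3, and 15 after quantile normalization.

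Some of these genes hold an endoplasmic reticulum stress element, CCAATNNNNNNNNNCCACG, which ATF6 and XBP1 use together with NF-Y. Searched on both strands, it occurs in 27 of the 35116 promoters and in 8 of the 29 tested list members with a promoter there. Of the 8 members that fell and have a promoter there, 3 hold it, and these are shown. The calls on HSP90B1, PDIA6 and CRELD2 were made in 0, 0 and 1 of the 6 leave-out fits. Capitals mark the element; the second copy in HSP90B1 and the copy in CRELD2 are on the opposite strand, and none overlaps another motif searched here.
HSP90B1 (chr12:103930176-103930379, plus strand): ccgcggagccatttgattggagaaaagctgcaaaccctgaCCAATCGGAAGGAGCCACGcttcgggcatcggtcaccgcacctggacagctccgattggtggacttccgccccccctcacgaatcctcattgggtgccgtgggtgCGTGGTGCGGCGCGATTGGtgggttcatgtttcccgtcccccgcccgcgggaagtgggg
PDIA6 (chr2:10812813-10812911, minus strand): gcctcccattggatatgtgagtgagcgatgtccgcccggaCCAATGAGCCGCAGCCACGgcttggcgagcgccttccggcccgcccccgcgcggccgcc
CRELD2 (chr22:49918514-49918612, plus strand): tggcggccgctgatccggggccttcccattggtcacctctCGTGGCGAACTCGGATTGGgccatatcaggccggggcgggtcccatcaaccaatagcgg
CALR, CANX, ERO1B, HSPA5 and XBP1 hold the element too and did not pass.

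Some genes of the integrated stress response, which ATF4 runs when amino acids or folding capacity are short, fell as well. Of 33 tested 1 rose and 5 fell (median -0.12). ASNS, asparagine synthetase, had 4.84, 5.02 and 5.22 FPKM in the combination libraries, against 9.46, 9.54 and 8.69 FPKM in the radiation libraries (-0.76 ± 0.12, adjusted p = 0.00486). TRIB3, a pseudokinase induced by ATF4, had 31.6, 27.1 and 30.5 FPKM in the combination libraries, against 45.9, 46.1 and 45.3 FPKM in the radiation libraries (-0.61 ± 0.10, adjusted p = 0.00667). SLC7A11, the cystine importer that feeds glutathione synthesis, had 13.8, 17.7 and 10.7 FPKM in the combination libraries, against 28.0, 25.4 and 27.6 FPKM in the radiation libraries (-0.92 ± 0.18, adjusted p = 0.0158). In all 3 the combination libraries were below the radiation libraries, but the call on SLC7A11 was made in 1 of the 6 leave-out fits. Its partner SLC3A2 and the tRNA synthetase WARS fell by less, and EIF2AK4, the kinase that senses uncharged tRNA, rose (0.41 ± 0.09, adjusted p = 0.0232). ATF4 itself had 183, 145 and 168 FPKM in the combination libraries, against 176, 184 and 182 FPKM in the radiation libraries, and the groups overlapped (-0.14 ± 0.11, adjusted p = 0.455). DDIT3, which encodes CHOP, had 51.1, 39.4 and 47.2 FPKM in the combination libraries, against 58.7, 62.3 and 64.5 FPKM in the radiation libraries and did not pass (-0.43 ± 0.12, adjusted p = 0.0539). The number that fell was 3 and 4 without combination 1 and 2, 2 without combination 3 or any one radiation library, and 13 after quantile normalization.

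Of 30 tested genes of the oxidative stress response 8 rose and SLC7A11 fell (median 0.18). Abundant genes rose more often in general. Of all tested genes 11.9% rose at 20 to 100 FPKM (median 0.17) and 17.0% above 100 FPKM (median 0.19). Counts and medians of this and other lists with many abundant genes are to be read beside these shares. FTL, the ferritin light chain, had 1776, 1593 and 1759 FPKM in the combination libraries, against 1105, 1102 and 1092 FPKM in the radiation libraries (0.63 ± 0.10, adjusted p = 0.0051). SOD1, the cytosolic superoxide dismutase, had 106, 97.1 and 105 FPKM in the combination libraries, against 60.8, 62.0 and 60.6 FPKM in the radiation libraries (0.74 ± 0.12, adjusted p = 0.00586). CAT, catalase, had 20.9, 21.6 and 23.3 FPKM in the combination libraries, against 14.4, 15.0 and 15.3 FPKM in the radiation libraries (0.53 ± 0.08, adjusted p = 0.00586). NQO1, a quinone reductase and target of NRF2, had 105, 103 and 106 FPKM in the combination libraries, against 73.5, 71.5 and 73.1 FPKM in the radiation libraries (0.52 ± 0.09, adjusted p = 0.00725). These 4 did not overlap between groups and passed in all 6 leave-out fits, though the call on FTL was lost after quantile normalization (adjusted p = 0.183) and with no filter on low genes (0.0789). GSR, PRDX1, GPX1 and GPX4 also rose. The number that rose was 8 without combination 2, 4 without any other of the 6 libraries, and 3 after quantile normalization.

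Some glycolysis and sterol genes rose. Of 34 hypoxia and glycolysis genes 11 rose and 1 fell (median 0.30). PGAM1, phosphoglycerate mutase, had 81.4, 79.9 and 82.6 FPKM in the combination libraries, against 57.1, 56.0 and 54.9 FPKM in the radiation libraries (0.53 ± 0.07, adjusted p = 0.00275). LDHA, lactate dehydrogenase, had 83.5, 92.6 and 88.4 FPKM in the combination libraries, against 53.004, 52.8 and 55.6 FPKM in the radiation libraries (0.70 ± 0.11, adjusted p = 0.00592). Neither overlapped between groups. PGK1 (0.48 ± 0.08, adjusted p = 0.00782), GPI (0.60 ± 0.11, adjusted p = 0.00937), ENO1, PFKP, ALDOC, NDRG1, ADM and KDM3A rose too, the glucose transporter SLC2A3 fell, and GAPDH, often used as a reference gene, had 423, 399 and 475 FPKM in the combination libraries, against 291, 286 and 294 FPKM in the radiation libraries (0.57 ± 0.11, adjusted p = 0.0112). Of 32 genes of cholesterol and fatty acid synthesis 7 rose and 0 fell (median 0.28). FDFT1, squalene synthase, had 23.5, 22.9 and 23.2 FPKM in the combination libraries, against 12.5, 13.5 and 13.6 FPKM in the radiation libraries (0.77 ± 0.08, adjusted p = 0.0006). SCD, the stearoyl-CoA desaturase, had 135, 139 and 149 FPKM in the combination libraries, against 99.3, 97.8 and 103 FPKM in the radiation libraries (0.49 ± 0.08, adjusted p = 0.00645), a call lost after TPM scaling (adjusted p = 0.0517) and quantile normalization (0.194). HMGCS1, MSMO1, ACAT2, the sterol sensor INSIG1 and the sterol-regulating factor SREBF2 also rose. The glycolysis count was 5 and 11 without combination 1 and 2, 3 without combination 3, 4, 4 and 5 without radiation 1, 2 and 3, and 5 after TPM scaling or quantile normalization. The sterol count was 2, 3 and 2 without combination 1, 2 and 3, 3, 2 and 2 without radiation 1, 2 and 3, and 3 after quantile normalization.

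Cytoskeletal and folding genes also rose in part. Of 37 genes of the actin cytoskeleton and targets of SRF 7 rose and 0 fell (median 0.30). TPM4, a tropomyosin, had 26.8, 25.9 and 27.8 FPKM in the combination libraries, against 16.4, 16.2 and 16.5 FPKM in the radiation libraries (0.68 ± 0.06, adjusted p = 0.000405). MSN, moesin (0.60 ± 0.11, adjusted p = 0.00884), FHL2, ARPC3, ACTA2, ACTG1 and ACTB rose as well, and ACTB, another common reference gene, had 392, 399 and 419 FPKM in the combination libraries, against 300.0, 292 and 296 FPKM in the radiation libraries (0.44 ± 0.08, adjusted p = 0.0118). Of the CCT chaperonin, the ring complex that folds tubulin and actin, CCT5 (0.38 ± 0.08, adjusted p = 0.0192) and CCT8 (0.50 ± 0.13, adjusted p = 0.0404) rose of 8 subunits, and the log2 fold change was above 0 in all 8 (median 0.37). HSP90AB1, the constitutive cytosolic HSP90, had 825, 811 and 836 FPKM in the combination libraries, against 579, 565 and 597 FPKM in the radiation libraries (0.50 ± 0.08, adjusted p = 0.00486), and with HSPD1 it made 2 of 21 heat shock genes (9.52%) that rose, against 0 that fell. Of all tested genes 11.9% rose at 20 to 100 FPKM, where CCT5 and CCT8 lie. Above 100 FPKM, where HSP90AB1 and HSPD1 lie, it was 17.0%. The actin count was 4, 5 and 1 without combination 1, 2 and 3 and 3, 2 and 3 without radiation 1, 2 and 3, the chaperonin count was 1 without combination 2 and 0 without any other of the 6 libraries, and the heat shock count was 3 without combination 2 and 1 without any other. After quantile normalization the calls on ACTB and GAPDH were lost, as they were in 4 and 3 of the 6 leave-out fits. Also lost after quantile normalization were the calls on CCT5 (adjusted p = 0.153), CCT8 (0.0874), HSPD1 (0.0889) and MSN (0.0605).

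Among DNA repair genes 0% of homologous recombination and Fanconi genes rose, and 10.5% of end joining genes, against 4.81% of all tested genes. Homologous recombination and Fanconi genes repair breaks and crosslinks with a sister chromatid as template, and of 32 tested 0 rose and 0 fell (median 0.00, and -0.03 to 0.05 under other scalings). UBE2T, the most abundant of them, stood at 14.7, 16.8 and 17.1 FPKM in the combination libraries, against 12.9, 11.4 and 12.5 FPKM in the radiation libraries (0.37 ± 0.21, adjusted p = 0.301). End joining rejoins broken ends directly, and of 19 tested genes XRCC6 and XRCC5, which encode the Ku70 and Ku80 proteins that hold the ends, rose. XRCC6 had 132, 119 and 128 FPKM in the combination libraries, against 85.4, 89.0 and 88.5 FPKM in the radiation libraries (0.52 ± 0.08, adjusted p = 0.00586), with no overlap between groups, and missed the threshold after quantile normalization (adjusted p = 0.0547). XRCC5 changed by less (0.40 ± 0.10, adjusted p = 0.0409) and passed in 0 of the 6 leave-out fits, so that the count was 1 in each. XRCC6 and XRCC5 are abundant, and of all tested genes 11.9% rose at 20 to 100 FPKM and 17.0% above 100 FPKM. Among 22 checkpoint genes 2 (9.09%) rose, CHEK2 among them (0.36 ± 0.08, adjusted p = 0.024). In checkpoint signalling the number that rose was 1 without radiation 1 and 0 without any other of the 6 libraries. Of 48 DNA replication genes 8 rose and 1 fell (median 0.07). PCNA, the sliding clamp and also a p53 target, had 128, 134 and 131 FPKM in the combination libraries, against 89.8, 86.5 and 86.1 FPKM in the radiation libraries (0.58 ± 0.13, adjusted p = 0.021). PRIM2, MCM6, RRM1, RFC2, RPA1, RPA2 and CCNE1 rose, and E2F1, the factor that drives S phase genes, fell, with 5.65, 4.93 and 4.54 FPKM in the combination libraries, against 8.10, 7.73 and 6.77 FPKM in the radiation libraries (-0.50 ± 0.11, adjusted p = 0.0191). The replication count was 1, 4 and 0 without combination 1, 2 and 3 and 0, 0 and 1 without radiation 1, 2 and 3.

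Some apoptosis genes rose. BAK1, which permeabilises the mitochondrial membrane, had 12.6, 11.9 and 12.99 FPKM in the combination libraries, against 8.74, 8.62 and 7.79 FPKM in the radiation libraries (0.52 ± 0.08, adjusted p = 0.00586). BID, which links death receptors to that step, rose (0.53 ± 0.09, adjusted p = 0.00886), as did BIK and the survival factor MCL1, and of 31 tested 5 rose and 0 fell (median 0.14). The count was 2, 2 and 1 without combination 1, 2 and 3 and 2 without any one radiation library. On a list named for senescence-associated secretion 20 genes were tested, of which 5 rose and 0 fell (median 0.11). PLAU, urokinase, had 30.6, 25.7 and 29.1 FPKM in the combination libraries, against 12.5, 14.8 and 15.1 FPKM in the radiation libraries (0.96 ± 0.10, adjusted p = 0.000498). Its receptor PLAUR had 8.37, 7.44 and 9.33 FPKM in the combination libraries, against 4.02, 4.49 and 4.44 FPKM in the radiation libraries (0.82 ± 0.12, adjusted p = 0.00383). ANGPTL4, an inhibitor of lipoprotein lipase, had 16.1, 11.4 and 14.4 FPKM in the combination libraries, against 5.23, 5.79 and 5.03 FPKM in the radiation libraries (1.23 ± 0.18, adjusted p = 0.00407), combination 2 being the lowest of its group. LMNB1, a nuclear lamin that is on the list but is not secreted, rose as well (0.34 ± 0.08, adjusted p = 0.0329). Its call was made in 0 of the 6 leave-out fits. The count was 3 without combination 3, radiation 1 or radiation 2 and 4 in the other leave-out fits. Of 16 NF-kB target and cytokine genes NFKBIE, an inhibitor of NF-kB, alone rose (0.55 ± 0.10, adjusted p = 0.00956), with calls in 4 of the 6 leave-out fits.

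Of 30 listed genes that signal from tumour cells to macrophages 13 reached the mean of 1 FPKM and were tested, of which 2 rose and 1 fell (median 0.02, and -0.03 to -0.01 under other scalings). PTGES, which makes prostaglandin E2, had 19.7, 15.1 and 18.1 FPKM in the combination libraries, against 12.04, 11.6 and 10.9 FPKM in the radiation libraries (0.57 ± 0.11, adjusted p = 0.0156). HMGB1, a nuclear protein that alerts immune cells when released, had 18.5, 20.9 and 18.6 FPKM in the combination libraries, against 13.2, 13.2 and 14.2 FPKM in the radiation libraries (0.48 ± 0.12, adjusted p = 0.0373). IL20RB, a subunit of receptors for the IL-20 cytokine family, had 1.30, 1.99 and 1.86 FPKM in the combination libraries, against 3.38, 3.73 and 3.36 FPKM in the radiation libraries (-0.73 ± 0.15, adjusted p = 0.0153). The groups did not overlap in these 3 genes, but the calls were made in 1, 0 and 1 of the 6 leave-out fits. These are mRNA levels of the cancer line, and macrophages were not measured here.

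**Figure D3:**
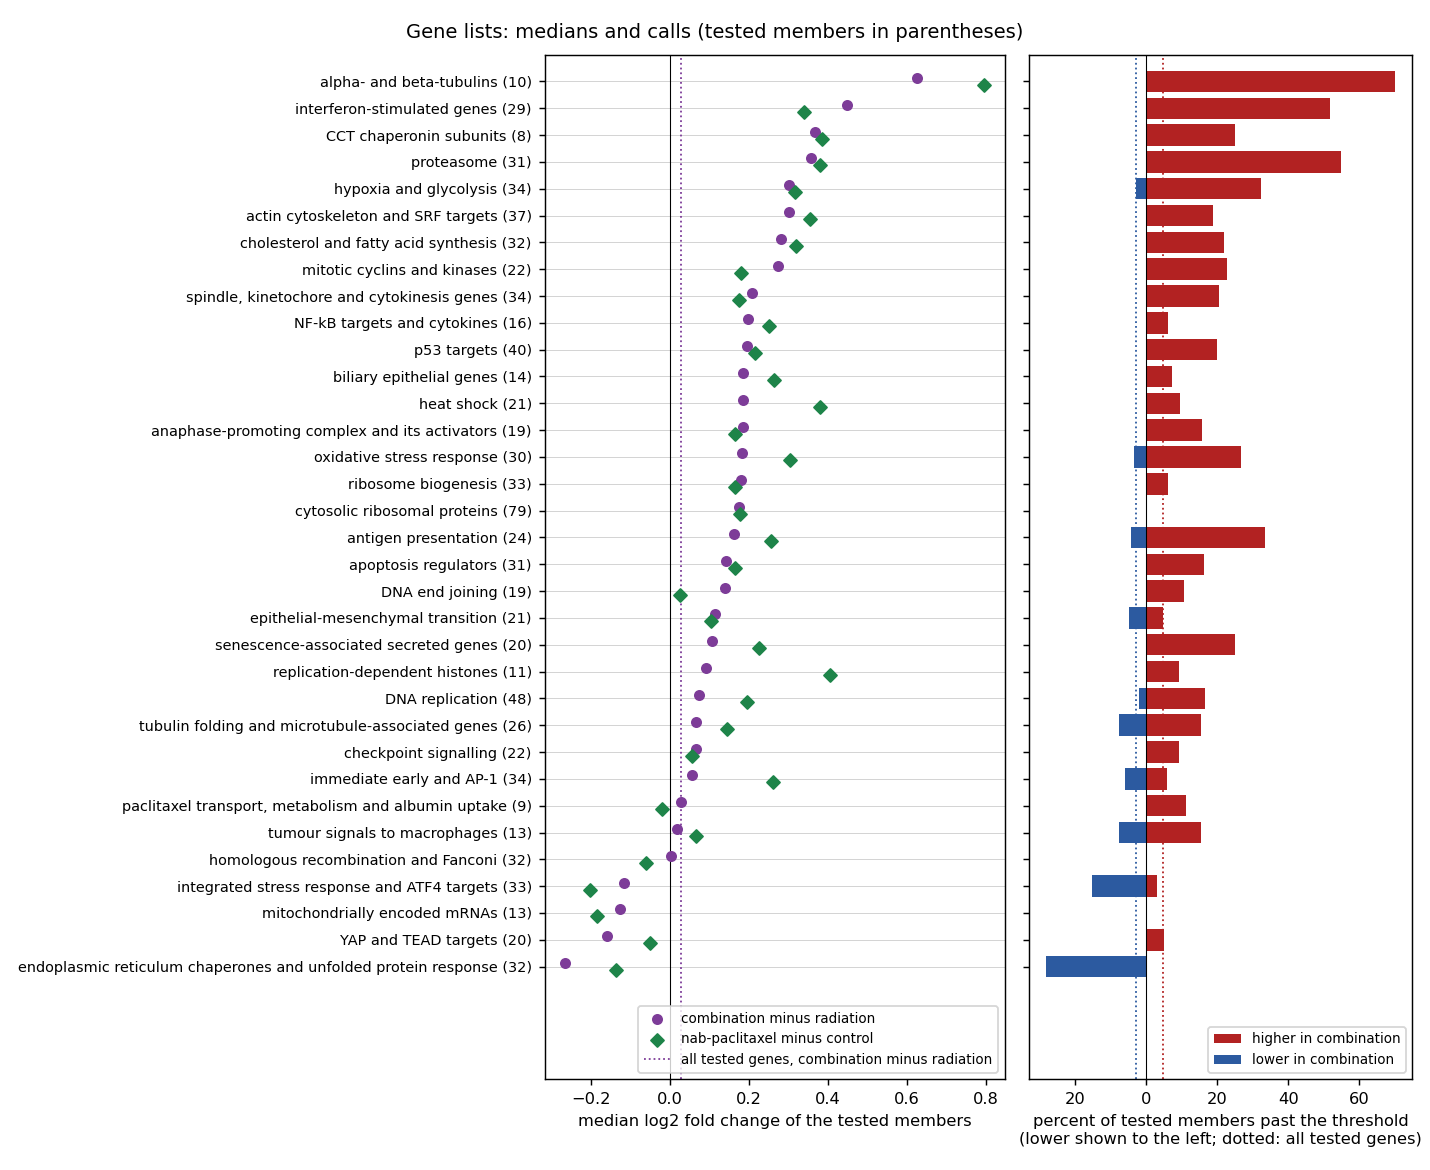
Left, median log2 fold change of the tested members of 34 gene lists for combination minus radiation (circles) and nab-paclitaxel minus control (diamonds), with the median of all tested genes in the first comparison dotted (0.03). Right, percent of tested members that were higher (red) or lower (blue) in the combination, with the percent of all tested genes dotted (4.81 and 2.95). The alpha- and beta-tubulins have the highest median (0.63) and the endoplasmic reticulum chaperones the lowest (-0.26).

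Outside the lists the largest rise was that of SMN1 (ENSG00000172062, chr5:70925030-70953942), which acts in assembling spliceosomal particles, with 22.6, 16.9 and 20.1 FPKM in the combination libraries, against 5.36, 5.22 and 6.65 FPKM in the radiation libraries (1.62 ± 0.16, adjusted p = 0.000405). Its near-identical copy SMN2 stood at 3.98, 4.72 and 4.91 FPKM in the combination libraries, against 3.72, 3.64 and 4.70 FPKM in the radiation libraries (0.14 ± 0.11, adjusted p = 0.445). Representative transcripts of the pair have 1536 bases each and differ at 2, so the split of fragments between them is uncertain, but their sum did not overlap either, with 26.5, 21.6 and 25.0 FPKM in the combination libraries, against 9.08, 8.86 and 11.4 FPKM in the radiation libraries. Further rises by rule were ARRDC4, an arrestin-domain protein, with 3.72, 4.56 and 4.08 FPKM in the combination libraries, against 0.961, 1.03 and 1.34 FPKM in the radiation libraries (1.28 ± 0.12, adjusted p = 0.000405), and HAS3, a hyaluronan synthase, with 21.8, 20.5 and 22.3 FPKM in the combination libraries, against 11.4, 10.8 and 10.2 FPKM in the radiation libraries (0.93 ± 0.11, adjusted p = 0.00105). These 3 genes passed in every other setting that tested them. The remaining genes of the rule, AL118516.1 (0.91 ± 0.20) and AC245452.2 (1.08 ± 0.29), passed in 2 and 0 of the 6 leave-out fits.

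The 12 largest falls were all genes of at most 500 bases and 0 of them were protein-coding. They averaged 0 to 8.67 fragments per library in the combination and 6.00 to 32.7 with radiation alone. RNU6-1191P, a pseudogene of the U6 spliceosomal RNA, had 0.528, 0 and 0 FPKM in the combination libraries, against 3.88, 2.61 and 3.25 FPKM in the radiation libraries (-1.87 ± 0.20, adjusted p = 0.000842), that is 0.333 and 6.00 fragments per library on average. RNU1-138P, related to the U1 RNA, had 1.72, 3.07 and 4.67 FPKM in the combination libraries, against 13.4, 6.82 and 14.5 FPKM in the radiation libraries (-1.60 ± 0.27, adjusted p = 0.00703). Such genes rest on few fragments and have many copies in the genome, so their values are uncertain. Among protein-coding genes, chosen after their values were seen, RNASE1, a secreted ribonuclease, had 4.17, 3.05 and 3.71 FPKM in the combination libraries, against 8.70, 9.76 and 8.25 FPKM in the radiation libraries (-1.10 ± 0.15, adjusted p = 0.00275). PABPC1L, a poly(A)-binding protein best known from oocytes, had 14.5, 12.7 and 12.6 FPKM in the combination libraries, against 27.7, 27.3 and 25.2 FPKM in the radiation libraries (-0.96 ± 0.12, adjusted p = 0.00172). AMH, anti-Müllerian hormone, had 4.48, 3.28 and 3.76 FPKM in the combination libraries, against 9.67, 8.86 and 7.18 FPKM in the radiation libraries (-0.98 ± 0.14, adjusted p = 0.00332). All 3 were lower in each combination library than in any radiation library, and passed in all 6 leave-out fits.

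The direction of the calls went with the kind of gene. Of 11227 protein-coding genes 621 (5.53%) rose and 242 (2.16%) fell. Of 1119 long non-coding genes 16 (1.43%) rose and 82 (7.33%) fell, of 798 pseudogenes 17 rose and 50 fell, and of 394 small RNA genes 0 rose and 18 fell. By level, 1.66% rose and 3.80% fell among 6127 genes with a mean of 1 to 5 FPKM, while 17.0% rose and 1.74% fell among 230 genes above 100 FPKM. By length, 0.767% rose and 5.15% fell among 913 genes of up to 500 bases, 7.72% rose and 2.19% fell among 4481 genes of 1001 to 4000 bases, and 2.01% rose and 3.49% fell among 2438 genes over 8000 bases. The same order was seen without radiation, with a median of nab-paclitaxel minus control of 0.06 for protein-coding and -0.38 for small RNA genes, against 0.05 and -0.41 for combination minus radiation. The number of genes detected, given above, was lower in each combination library than in each radiation library, and its part in this was not tested.

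**Figure D4:**
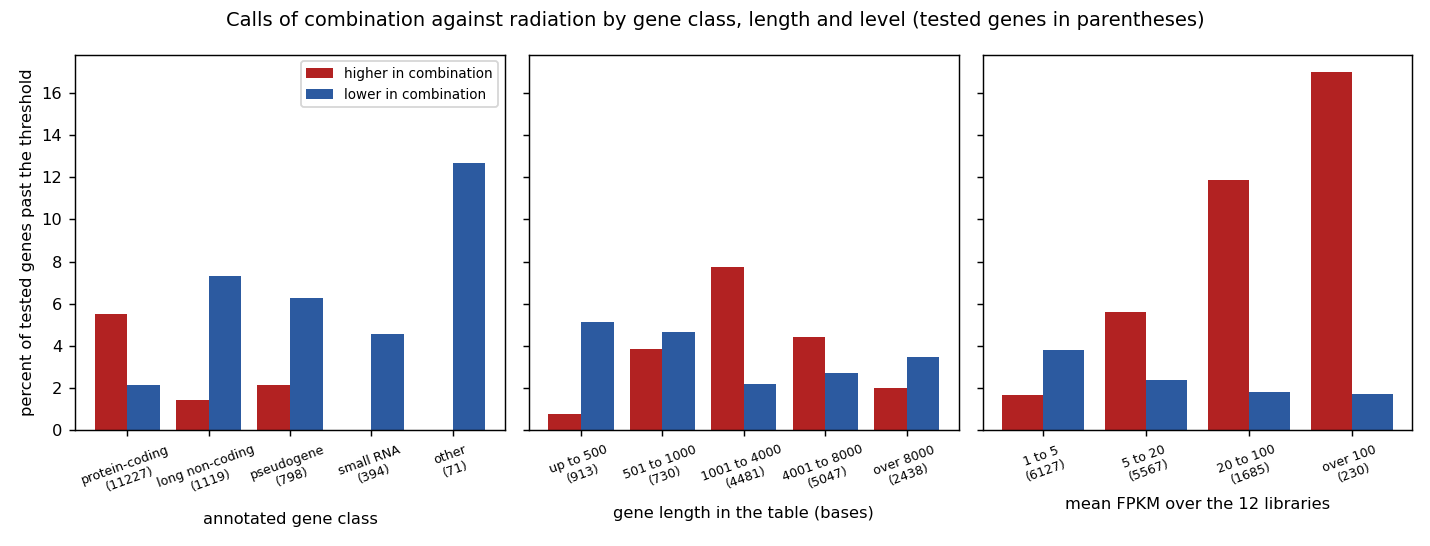
Percent of tested genes past the threshold (vertical axis) that were higher (red) or lower (blue) in the combination than with radiation alone, by annotated gene class (left), gene length in bases (middle) and mean FPKM over the 12 libraries (right), with the number tested under each pair of bars. Among protein-coding genes 5.53% rose and 2.16% fell, and among long non-coding genes 1.43% rose and 7.33% fell.

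The drug's effect was also measured without radiation, in the 6 libraries of nab-paclitaxel and control, which share no library with the comparison above. Both comparisons come from the same fit, however, and use the same estimate of spread for each gene. Their calls are therefore not independent, and a gene of small spread passes more easily in both. There 736 genes (5.41%) were higher and 464 (3.41%) lower. Of the 654 genes higher in irradiated cells 395 were also higher without radiation, 60.4% of the first list and 53.7% of the second, and of the 401 lower genes 199 were also lower, 49.6% and 42.9%. The log2 fold change had the same sign in both for 99.4% of the 654 and 95.5% of the 401, against 79.4% of all 13609 genes, and 0 genes were called in opposite directions. Across genes, which are not independent replicates, the Pearson correlation of the 2 effects was 0.68. Without radiation TUBB had 210.3, 192 and 199 FPKM in the nab-paclitaxel libraries, against 126, 127 and 129.5 FPKM in the control libraries (0.65 ± 0.07, adjusted p = 0.000821). OASL had 5.44, 4.73 and 5.198 FPKM in the nab-paclitaxel libraries, against 2.77, 2.37 and 2.73 FPKM in the control libraries (0.76 ± 0.08, adjusted p = 0.000821). CDKN1A had 199, 204 and 185 FPKM in the nab-paclitaxel libraries, against 122, 108 and 119.8 FPKM in the control libraries (0.74 ± 0.08, adjusted p = 0.000821). These 3 rose in both settings, and the difference between the 2 effects was 0.11 ± 0.10 for TUBB, 0.23 ± 0.11 for OASL and 0.01 ± 0.11 for CDKN1A. In the fit of nab-paclitaxel and control alone, without the other groups to steady the estimate of spread, 8 genes passed in that comparison.

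A direct test of whether radiation changed the drug's effect, the interaction over all 12 libraries, called 0 of 13609 genes (0%) by limma, the smallest adjusted p being 0.989. At an unadjusted p under 0.05 it picked 443 genes (3.26%), and voom on recovered fragments also called 0. Without control 2, nab-paclitaxel 1 and combination 2, left out after seeing the data, it picked 1345 genes (9.88%) and called 0. With no filter on low genes 1 gene was called in the positive direction and 4 in the negative. In the test over all 12 libraries the smallest p-values in the positive direction were those of SMN1 (interaction 1.23 ± 0.22), GPR15 (0.71 ± 0.18) and AL022328.1 (1.09 ± 0.22). In the negative direction they were those of CYR61, CTGF and TNFSF9. CYR61, a matrix protein and YAP target, had 14.0, 11.1 and 13.7 FPKM in the combination libraries, against 15.6, 18.1 and 17.2 FPKM in the radiation libraries. Without radiation it had 11.2, 14.3 and 13.1 FPKM in the nab-paclitaxel libraries, against 8.26, 9.47 and 9.54 FPKM in the control libraries (interaction -0.82 ± 0.16). CTGF, another YAP target, had 15.5, 14.4 and 15.9 FPKM in the combination libraries, against 19.4, 20.3 and 17.7 FPKM in the radiation libraries, and 17.2, 13.2 and 13.4 FPKM in the nab-paclitaxel libraries, against 9.42, 11.4 and 10.2 FPKM in the control libraries (interaction -0.76 ± 0.15). TNFSF9, the ligand of the T cell receptor 4-1BB, had an interaction of -0.57 ± 0.12. For these 3 genes the drug's effect was above 0 without radiation and below 0 with it, and the difference between the 2 effects did not pass. Without radiation CYR61 (0.45 ± 0.11, adjusted p = 0.0325) and CTGF (0.45 ± 0.11, adjusted p = 0.0291) were called higher with the drug. In irradiated cells neither CYR61 (-0.37 ± 0.11, adjusted p = 0.0678) nor CTGF (-0.31 ± 0.11, adjusted p = 0.106) passed. PDIA4 differed by -0.36 ± 0.11 and DNAJB11 by -0.29 ± 0.10 between the backgrounds, also without passing. A p that misses the threshold does not show that the effects were alike.

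**Figure D5:**
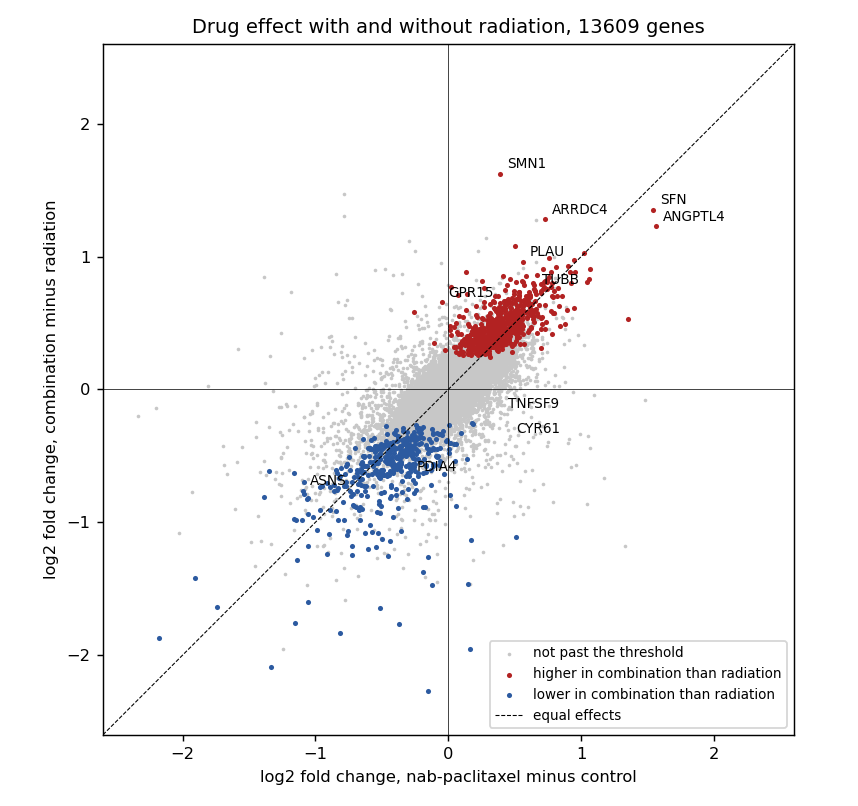
Log2 fold change of combination minus radiation (vertical axis) against that of nab-paclitaxel minus control (horizontal axis) for 13609 genes, with genes higher (red) or lower (blue) in the combination than with radiation alone and the line of equal effects dashed. Most coloured points lie in the quadrants where both effects have the same sign (99.4% of the red and 95.5% of the blue), and SMN1 lies far above the line.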

How the data were processed

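Messenger RNA of TFK1 cells was sequenced from libraries made with a SMARTer mRNA-seq kit, per the labels' protocols. The authors deposited a single table of FPKM values with gene lengths for 58735 genes and 12 libraries, on build hg38 per the submitters' processing notes. Which aligner and counter made it, and whether strand was used, is not given in the sources used here, so antisense and overlapping genes are uncertain. FPKM times gene length gave whole multiples of 1 step in every library (100% of genes within 0.05), from which fragments were recovered.

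After adding a pseudocount of 1 and taking log2, limma 3.58.1 (R 4.3.3) was fitted to the 4 groups together with a trend of variance on level (8 residual and 3.39 prior degrees of freedom). Tests were two-sided, with Benjamini-Hochberg adjustment over 13609 genes and a threshold of 0.05. The fit was also run on simulated data with the same spread for all genes and changes only in well-covered genes. No simulated library stood apart, so that run does not cover low genes or deviating libraries such as combination 2. Totals per library are in the report, and counting error limits low genes most. Replicate numbers showed no pairing of combination and radiation libraries, and no replicate block was used in the main fit. Lists are given by counts and medians. Named genes were the 12 largest rises and 12 largest falls (2 FPKM or more in the higher group, groups not overlapping), up to 4 called genes per list by p or otherwise the most abundant, 3 per direction for the interaction, and ACTB, GAPDH, CDKN1A, MDM2, GDF15 and TUBB. Others are list members or are said to be chosen later, and some names were left out for length. The members, lists and tests were chosen with earlier results of these data known. The settings tried are the pseudocount (0.1), the filter (none, or 5 FPKM), scaling (size factors, TPM, quantile), the replicate block, no trend, protein-coding genes only, voom, only the groups compared, and leaving out each library. Promoters came from RefSeq (GRCh38.p14), where 9200 tested genes matched by symbol, and coding starts from GENCODE 29. Some genes are not reported here.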

Additional observations from a re-analysis of the deposited data

How the results depend on the processing

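For combination against radiation the number of genes higher and lower was 342 and 235 without a filter, 1632 and 870 with only the groups compared, and 369 and 237 with the replicate number as a block. It was 404 genes higher after TPM scaling and 193 lower with a mean of at least 5 FPKM. Leaving out 1 library gave 135 to 1208 genes higher and 83 to 671 lower. Without control 2, nab-paclitaxel 1 and combination 2, chosen after seeing the data because their deviations correlate, it was 2561 and 1567. For nab-paclitaxel against control the numbers were 346 and 233 without a filter, 381 higher after quantile normalization, 216 lower with a mean of at least 5 FPKM, 435 and 266 with the replicate block, 3 and 5 with only the groups compared, and 1196 and 640 without the 3 libraries. Leaving out 1 library gave 334 to 725 higher and 190 to 456 lower. The interaction called 5 genes without a filter and 0 in all other settings run. Same-numbered combination and radiation libraries deviated from their group means with r = -0.0904, -0.172 and -0.0336, so the numbers showed no pairing of these groups. These values cannot exclude a batch shared by number. Where a number moved, fewer or more genes or samples were fitted, or the cause was not tested. Of the 114 named genes that passed, 109 passed with size factors over tested genes, 93 after TPM scaling, 87 after quantile normalization, 95 with the replicate block and 110 by voom, and 52 without combination 3. No named gene past the threshold changed sign in any setting. The medians of the ribosomal protein, histone, immediate early, biliary, macrophage signal, paclitaxel transport and homologous recombination lists changed sign under another scaling. Depth limits the short and low genes, where a call can rest on under 10 fragments.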

Other observations

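In the lists that the account above leaves out few genes passed in irradiated cells. Of 20 YAP and TEAD targets 1 rose and 0 fell (median -0.16), of 21 genes of epithelial-mesenchymal transition SPARC rose and FN1, fibronectin, fell (-0.40 ± 0.09, adjusted p = 0.0259), and of 14 biliary epithelial genes KRT19, a keratin of bile duct cells, rose (0.61 ± 0.12, adjusted p = 0.0159). KRT19 stood at 672, 520.0 and 606 FPKM in the combination libraries, against 373, 418 and 382 FPKM in the radiation libraries. Among 34 immediate early genes FOSL1 (0.57 ± 0.11, adjusted p = 0.0124) and KLF10 rose, and KLF2 (-0.48 ± 0.09, adjusted p = 0.011) and JUND (-0.51 ± 0.14, adjusted p = 0.0436) fell. FOSL1, an AP-1 subunit, had 30.1, 27.6 and 33.6 FPKM in the combination libraries, against 19.8, 18.3 and 22.4 FPKM in the radiation libraries. KLF2, a zinc-finger factor, had 13.3, 12.9 and 13.01 FPKM in the combination libraries, against 19.2, 19.5 and 17.3 FPKM in the radiation libraries. Without radiation KLF2 had 20.7, 18.8 and 17.5 FPKM in the nab-paclitaxel libraries, against 18.0, 17.8 and 21.0 FPKM in the control libraries, and those groups overlapped. Calls on KLF2 and FOSL1 were each made in 3 of the 6 leave-out fits, and those on KRT19 in 2.

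Genes of protein synthesis did not pass as a rule. Of 79 cytosolic ribosomal protein genes 0 rose and 0 fell (median 0.17, and -0.04 after quantile normalization), and RPS12 stood at 829, 737 and 781 FPKM in the combination libraries, against 666, 676 and 677 FPKM in the radiation libraries. Of 33 ribosome biogenesis genes NOLC1 (0.30 ± 0.07, adjusted p = 0.0312) and FBL (0.43 ± 0.11, adjusted p = 0.0364) rose. Of 13 mitochondrially encoded mRNAs 0 rose and 0 fell (median -0.13), and MT-CO1 stood at 16101, 20913 and 19598 FPKM in the combination libraries, against 21423, 19608 and 20792 FPKM in the radiation libraries. Of 11 histone genes H1F0, a replacement linker histone, rose (0.49 ± 0.12, adjusted p = 0.0358).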
